A study of Mus musculus with 21 samples.

Results

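The granins and the proteins that make and fill dense-core vesicles were examined through 8 genes, Vgf, Chga, Chgb, Scg2, Scg3, Scg5, Cpe and Pcsk2. They were chosen by gene symbol, with earlier results of these data known. All 8 were present among the 5544 genes measured in 21 libraries of mouse cortex. The libraries came from 10 sham and 11 HF-HI mice, wild-type (WT in the column names) male C57BL/6 animals of 12 weeks, given as C57Bl/6J in the methods of the study, and each was made from the total RNA of dissected cortex taken 24 h after the last procedure. HF-HI (high-frequency head impact) mice had received closed-head impacts on successive days under isoflurane, and sham mice had the same handling and anesthesia without an impact, so that handling and isoflurane were common to both groups. The comparison asks how the cortical RNA of these genes stood a day after the impacts.

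Dense-core vesicles carry neuropeptides, neurotrophic factors and granins, and release them on calcium entry more slowly than synaptic vesicles release transmitter. Granins are acidic proteins that condense with peptide cargo in the trans-Golgi network and are themselves cut into bioactive peptides. Prohormone convertases cut the precursors at paired basic residues, carboxypeptidase E trims the basic residues left behind, and some products are then amidated. In cortex the pathway is used by excitatory and inhibitory neurons alike, and RNA of several granins, among them Vgf and Scg2, is known to follow neuronal activity.

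Each value is a variance-stabilized, library-size-normalized expression value on a log2 scale that the authors deposited, 1 per gene and library. A difference is the HF-HI mean minus the sham mean on that scale, its error is limma's standard error, and a gene was called when limma's moderated test over all 5544 genes gave a Benjamini-Hochberg adjusted p under 0.05. On this basis 5 of the 8 genes were higher in HF-HI (Cpe, Vgf, Chga, Chgb and Scg3), 2 were lower (Scg5 and Scg2) and Pcsk2 was not called. The 7 called genes stand beside 66.3% of all genes called, 32.6% higher and 33.6% lower, so the count by itself says little about the 8 genes. The library medians themselves did not overlap, at 9.68 to 9.72 in sham and 9.73 to 9.76 in HF-HI, and their means differed by 0.052. Centring libraries on their medians called 69% of all genes, 26.1% higher and 42.9% lower, and quantile normalization 68.3%, 27.9% higher and 40.4% lower. The part of this offset in the differences was not tested beyond these steps. With a minimum absolute log2 difference of 0.25 as well, 5 of the 8 genes were called (all but Scg2, Scg3 and Pcsk2), beside 25.8% of all genes. The median absolute log2 difference was 0.34 over the 8 genes and 0.16 over the table. The groups did not overlap for 3 of the 8 genes, Cpe and Chga (higher) and Scg5 (lower), where 13.5% of all genes showed no overlap, 8.71% higher and 4.76% lower. Since the 8 genes were chosen with earlier results of these data known, these contrasts with the table are description only. In bulk tissue, a change in the number of cells of a type and a change in RNA per cell cannot be told apart.

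Because cAMP response elements are known in granin promoters, the sequences around the best match to that element are shown for the 6 genes with an entry in the RefSeq promoter set (GRCm38.p6, 250 bases before to 50 after each transcription start). Vgf and Cpe had no entry. The full palindrome TGACGTCA, which reads the same on both strands, was found in Scg2 and Chgb. For the other genes the capitals mark the first match, on either strand, to the half-site TGACG, which is also part of the palindrome.
Scg2 (chr1:79440076-79440105, minus strand): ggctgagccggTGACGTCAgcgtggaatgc
Chgb (chr2:132781559-132781588, plus strand): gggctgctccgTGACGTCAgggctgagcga
Chga (chr12:102554885-102554914, plus strand): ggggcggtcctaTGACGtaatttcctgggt
Scg3 (chr9:75684069-75684098, minus strand): gcgctgggtcgcTGACGccatcctcacgcc
Scg5 (chr2:113829249-113829278, minus strand): aaaggaggtaaaTGACGttcataggggtcg
Pcsk2 (chr2:143546087-143546116, plus strand): ctggcgggcgcgCGTCAcccgggctggcgc
Counted from the RefSeq start, the palindrome lay from -68 to -61 in Scg2 and from -72 to -65 in Chgb. Both stretches lie inside the GENCODE bounds of these genes given below, which begin farther upstream than the RefSeq starts. The palindrome was present in 1.79% of the 32851 promoter windows of that length and in 3.32% of the 5849 windows of genes in the table. The half-site was in the full windows of all 6 genes, as part of the palindrome in Scg2 and Chgb. It was in 20.8% of all windows and 32.7% of those of genes in the table. Among 181 table genes with the palindrome in a window, HF-HI was higher for 51 and lower for 70, where 32.6% of all genes were higher and 33.6% lower. Their median log2 difference was -0.038, against -0.0086 over all genes. Scg2 and Chgb, the 2 members with the palindrome, were called in opposite directions. The part of the element in these differences was not tested.

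Levels can be set side by side between genes only per length, so the log2 value was reduced by the log2 of the exonic length in kb (the union of annotated exons, which for Pcsk2, with 7910 bases, may exceed the transcripts in use). On that per-kb log2 scale Cpe stood highest in both groups, at 11.93 ± 0.34 (SD, n = 10) for sham and 12.93 ± 0.057 (SD, n = 11) for HF-HI mice. In sham it was followed by Scg5 (10.35 ± 0.081), Chgb (9.94 ± 0.22), Pcsk2 (9.87 ± 0.098), Scg2 (9.48 ± 0.15), Scg3 (8.94 ± 0.092), Chga (7.74 ± 0.092) and Vgf (7.49 ± 0.32). Chgb and Pcsk2 could not be ordered in sham, since Chgb was above Pcsk2 in 5 of 10 libraries, and Chga was above Vgf in 8 of 10. In HF-HI the order was Cpe, Chgb (10.29 ± 0.085), Scg5 (10.02 ± 0.096), Pcsk2 (9.88 ± 0.085), Scg2 (9.31 ± 0.14), Scg3 (9.07 ± 0.092), Vgf (8.22 ± 0.19) and Chga (8.16 ± 0.073). On this scale Chgb lay above Scg5 in 11 of 11 HF-HI libraries, whereas Scg5 lay above Chgb in 10 of 10 sham libraries. That reversal rests on the exonic lengths used, 2740 bases for Chgb and 1569 for Scg5. Before the length step, Chgb minus Scg5 ran from -0.086 to 0.78 in sham and from 0.88 to 1.35 in HF-HI. The neighbours Scg5 and Pcsk2 kept their order in 9 of 11 HF-HI libraries, and Vgf and Chga in 8 of 11.

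**Figure D1:**
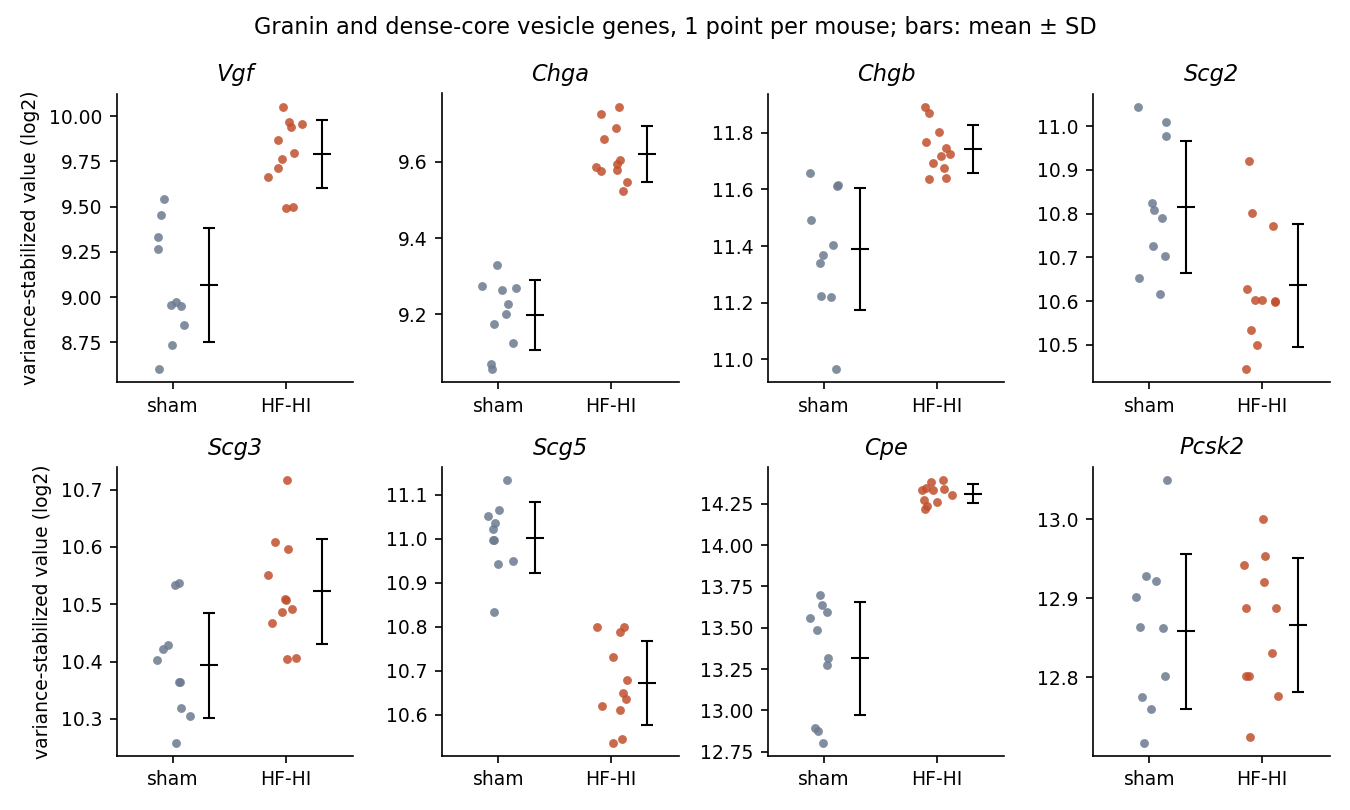
Variance-stabilized value (log2, vertical axis) of each of the 8 genes in sham and HF-HI cortex, 1 point per mouse, with the mean and SD beside the points and an axis of its own for each gene. All HF-HI points lie above all sham points for Cpe and Chga and below them for Scg5, while the groups cover the same range for Pcsk2.

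Among the granins proper, Chga (ENSMUSG00000021194, chromosome 12 from 102554969 to 102565028 of GRCm38) had the cleanest separation in the values as deposited. Chga encodes chromogranin A, a granule-forming protein and the precursor of several peptides. The lowest, median and highest log2 values were 9.06, 9.21 and 9.33 among sham mice, against 9.52, 9.59 and 9.74 among HF-HI mice. The ranges did not meet, and the log2 difference was 0.42 (standard error 0.037, adjusted p = 4.14e-09, limma).

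Chgb (ENSMUSG00000027350, chromosome 2 from 132781278 to 132795079), which encodes chromogranin B, stood at a higher level and differed by a similar amount. Sham mice spanned log2 values of 10.97 to 11.66 around a median of 11.38, and HF-HI mice 11.64 to 11.89 around a median of 11.72. Of the HF-HI libraries 9 of 11 lay above the highest sham library, and 1 sham library lay above the lowest HF-HI library. The log2 difference was 0.35 (standard error 0.066, adjusted p = 6.95e-05, limma). The sham libraries were spread 2.56 times as widely as the HF-HI libraries in SD.

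Vgf (ENSMUSG00000037428, chromosome 5 from 137026392 to 137033351), a gene first known as a target of nerve growth factor whose product is cut into many secreted peptides, had the largest difference among the granins. Log2 values in sham mice lay between 8.60 and 9.55 (median 8.96), and those in HF-HI mice between 9.49 and 10.05 (median 9.80). As for Chgb, 9 of 11 HF-HI libraries exceeded every sham library, and a single sham library reached into the HF-HI range. The log2 difference was 0.73 (standard error 0.10, adjusted p = 2.27e-06, limma), a ratio of 1.65 on the linear scale, and it ranked 103 of 5544 from the highest.

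Scg2 (ENSMUSG00000050711, chromosome 1 from 79434669 to 79440120), which encodes secretogranin II, the precursor of secretoneurin, went the other way. For sham the lowest log2 value was 10.62, the median 10.80 and the highest 11.04, and for HF-HI these were 10.44, 10.60 and 10.92. The groups overlapped, with 7 of 11 HF-HI libraries below the lowest sham library and 9 of 11 below the sham median. The log2 difference was -0.18 (standard error 0.060, adjusted p = 0.0115, limma).

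Scg3 (ENSMUSG00000032181, chromosome 9 from 75643189 to 75684056) encodes secretogranin III, which binds chromogranin A and the cholesterol-rich granule membrane. Log2 values spanned 10.26 to 10.54 among sham mice (median 10.38) and 10.40 to 10.72 among HF-HI mice (median 10.51). All 11 HF-HI libraries lay above the sham median and 4 of them above the highest sham library. The log2 difference was 0.13 (standard error 0.040, adjusted p = 0.00745, limma), and with libraries centred on their medians it was 0.077 and no longer called (adjusted p = 0.0863, limma).

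The convertase Pcsk2 and its chaperone Scg5 did not move together. Scg5 (ENSMUSG00000023236, chromosome 2 from 113776362 to 113829121) encodes the neuroendocrine chaperone that escorts proprotein convertase 2 through the secretory pathway and is needed for its activity. The sham mice held log2 values between 10.83 and 11.13 (median 11.01), the HF-HI mice between 10.54 and 10.80 (median 10.65). Every HF-HI library lay below every sham library, the log2 difference being -0.33 (standard error 0.039, adjusted p = 2.36e-07, limma), a ratio of 0.795.

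Pcsk2 (ENSMUSG00000027419, chromosome 2 from 143546156 to 143816285) encodes that convertase. Sham values were 12.72 at the lowest, 12.86 at the median and 13.05 at the highest on the log2 scale, and HF-HI values 12.72, 12.89 and 13.00. The groups covered the same range, with 6 of 11 HF-HI libraries above the sham median and 5 below. The log2 difference was 0.0079, with a 95% interval from -0.075 to 0.091 (adjusted p = 0.873, limma). Within each library, the Scg5 value minus the Pcsk2 value averaged -1.86 ± 0.14 (SD, n = 10) for sham and -2.19 ± 0.13 (SD, n = 11) for HF-HI mice, a change of -0.34 (permutation test, two-sided, p = 7e-05, adjusted p = 0.000115 over 28 pairs of members).

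Cpe (ENSMUSG00000037852, chromosome 8 from 64592542 to 64693054) encodes carboxypeptidase E, which trims peptide intermediates and also acts as a sorting receptor and a trophic factor, and had the largest difference of the 8 genes. In sham mice the log2 values lay between 12.80 and 13.70 (median 13.40), and in HF-HI mice between 14.22 and 14.39 (median 14.33). No HF-HI library came near a sham library, and the log2 difference was 1.00 (standard error 0.095, adjusted p = 1.09e-08, limma), which ranked 36 of 5544 from the highest. The HF-HI libraries lay within 0.17 of each other and the sham libraries within 0.89, an SD 5.98 times as large in sham. Sham replicates 1 to 3 formed the low end of the sham group, at 12.80 to 12.89 against 13.27 to 13.70. The same 3 libraries held the lowest sham values of Chgb, 10.97 to 11.22 against 11.34 to 11.66 in the other 7, and were singled out after these values were seen. Without them the log2 difference was 0.80 for Cpe and 0.24 for Chgb, and 7 of the 8 genes were still called. Most genes of the table were called in that fit as well, so this count by itself says little about the 8 genes.

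Differences between 2 members within a library do not depend on how that library was scaled, and they were compared for all 28 pairs (permutation test, two-sided, adjusted over the 28 pairs). In the values as deposited, the change between groups passed an adjusted p of 0.05 for 24 pairs, and for 13 pairs the groups did not overlap. Once each library's trend on GC content was removed, as described below, 19 pairs passed in place of 24. The same comparison was not made over all gene pairs of the table. Since 66.3% of all genes were called, in both directions, these counts by themselves say little about the members. The widest change was that of Scg5 minus Cpe, from -2.31 ± 0.40 (SD, n = 10) for sham to -3.64 ± 0.080 (SD, n = 11) for HF-HI mice, a shift of -1.33 (permutation p = 1e-05, the smallest the resamples can give, adjusted p = 1.87e-05). The rises of both chromogranin genes were not shown to differ: Chga minus Chgb was -2.19 ± 0.17 in sham and -2.12 ± 0.12 in HF-HI (permutation p = 0.290, adjusted p = 0.290). The other 3 pairs that did not pass were Vgf minus Cpe (change -0.27, permutation p = 0.145, adjusted p = 0.15), Scg2 minus Scg5 (change 0.15, permutation p = 0.0871, adjusted p = 0.0938) and Scg2 minus Pcsk2 (change -0.19, permutation p = 0.054, adjusted p = 0.0605). Chgb minus Scg2, the 2 members with the palindrome, changed by 0.53 (permutation p = 1e-05, adjusted p = 1.87e-05).

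The base composition of the libraries moved with the group. Each gene's departure from its own mean over the libraries was regressed on exonic GC content, and the slope per library lay between -0.23 and 0.0058 log2 units per 10% GC for sham, against -0.039 and 0.16 for HF-HI (permutation test, two-sided, p = 2e-05). The members differ in GC content, from 44.2% in Pcsk2 and 45.1% in Scg3 to 57.2% in Chga and 63.6% in Vgf, against a median of 47.6% in the table. Once each library's trend on GC content was removed, the log2 difference was 0.35 for Vgf (adjusted p = 0.000333, limma), 0.21 for Chga (adjusted p = 0.000432) and 0.22 for Chgb (adjusted p = 0.0144), each smaller by over 1.5 times than before. It was 0.95 for Cpe, 0.17 for Scg3, -0.17 for Scg2, -0.33 for Scg5 and 0.064 for Pcsk2, and 7 of the 8 genes were called as before, where the same step left 60.2% of all genes called, 29.2% higher and 31% lower. The part of GC content in these differences was not tested beyond this step.

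**Figure D2:**
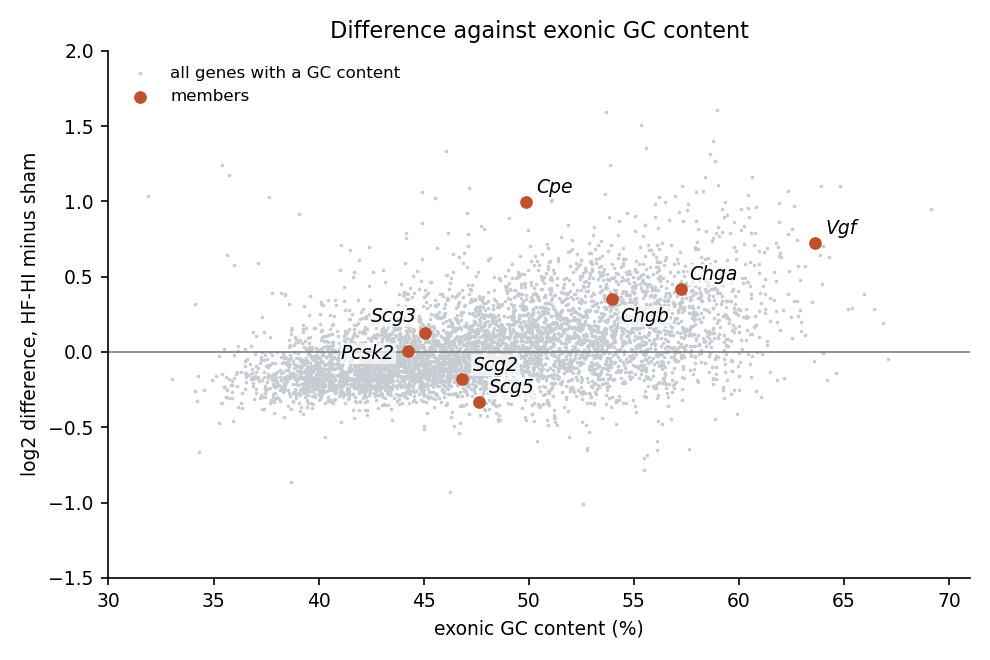
Log2 difference between HF-HI and sham (vertical axis) against exonic GC content in percent (horizontal axis) for all genes with a GC content (grey) and the 8 members (red). Vgf (63.6% GC, 0.73), Chga (57.2%, 0.42) and Chgb (53.9%, 0.35) lie to the right of the median of 47.6%, Cpe (49.9%, 1.00) lies near that median, and 4 genes fall outside the vertical range drawn.

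**Figure D3:**
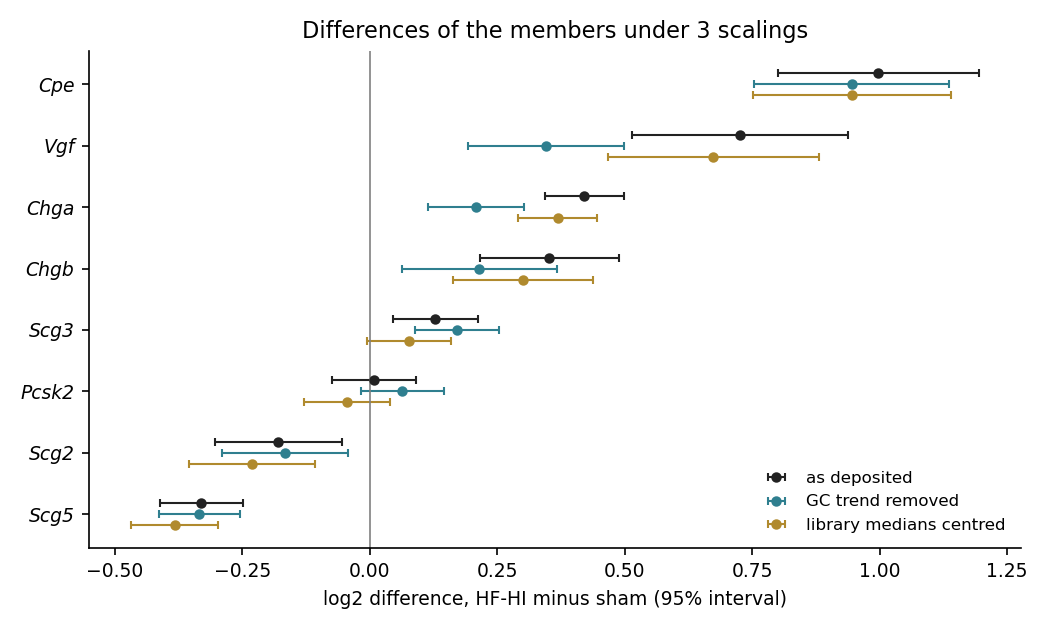
Log2 difference between HF-HI and sham (horizontal axis) with its 95% interval for each member, for values as deposited (black), with each library's GC trend removed (teal) and with library medians centred (gold). Vgf moves from 0.73 to 0.35 when the GC trend is removed, Cpe and Scg5 keep their place in all 3, and the Pcsk2 intervals include 0 in all 3.

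The summed level of neuron markers also stood higher in HF-HI. Of 15 neuron markers, all in the table, 9 were higher and 1 lower, where 32.6% of all genes were higher and 33.6% lower. The log2 of their summed linear level ran from 16.73 to 16.83 in sham and from 16.84 to 16.97 in HF-HI, without overlap. The mean log2 value of the list lay between 11.55 and 11.77 for sham and between 11.83 and 11.98 for HF-HI (two-sided permutation p = 1e-05, the lowest value 100000 resamples allow). Of 9 markers of inhibitory interneurons, 6 were in the table and 3 were higher, with summed log2 levels of 12.87 to 13.16 in sham and 12.86 to 13.26 in HF-HI. Those 3 include Sst and Npy, which are also in the cargo list below. Astrocyte markers, 8 of 10 in the table, were divided, with 3 higher and 2 lower, at 16.03 to 16.15 in sham and 16.07 to 16.21 in HF-HI. For oligodendrocytes 3 of 8 tested markers were higher (at most 15.99 in sham and 15.999 in HF-HI), for microglia 1 was higher and 1 lower of 2 tested, for endothelial cells 1 of 2 was higher, and the single choroid plexus marker tested, Ttr, was not called (6.16 to 11.51 and 6.86 to 13.35). Of the microglial markers 8 of 10 were not in the table. The part of the neuron markers in the members' differences was not tested.

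Covariation of the members from mouse to mouse was examined within each group, since the groups stood apart. Over 28 pairs in 2 groups, 56 relations, 8 had a permutation p under 0.05 by Pearson's r and 5 by Spearman's rho, and 0 passed after Benjamini-Hochberg adjustment over the 56 with either measure. The 8 genes did not rise and fall as a block: in sham 14 pairs were positive and 14 negative, and in HF-HI 12 were positive and 16 negative. The median absolute r was 0.42 in sham and 0.30 in HF-HI, beside 0.33 and 0.31 over all gene pairs of the table. The sign of r was shared by both groups for 18 of the 28 pairs.

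The strongest relation was that of Scg2 and Pcsk2 in HF-HI, with Pearson's r = -0.80 (permutation p = 0.00246, adjusted p = 0.138) and Spearman's rho = -0.75 (permutation p = 0.0109, adjusted p = 0.313), n = 11. Without the 2 libraries farthest from the median of Scg2 it was -0.70, and in sham r was -0.24. For Cpe and Chgb in sham, r was 0.70 (permutation p = 0.0255, adjusted p = 0.287) and rho 0.55 (permutation p = 0.105, adjusted p = 0.479), n = 10, and r was 0.72 without the 2 libraries farthest from the median of Chgb. The value rests on sham replicates 1 to 3, low in both genes: over the other 7 sham libraries r was -0.21 (exact permutation p = 0.6, adjusted p = 0.848 over 28 pairs) and rho -0.29 (exact permutation p = 0.556, adjusted p = 0.925). In HF-HI, where Cpe hardly varied, r between them was 0.14.

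**Figure D4:**
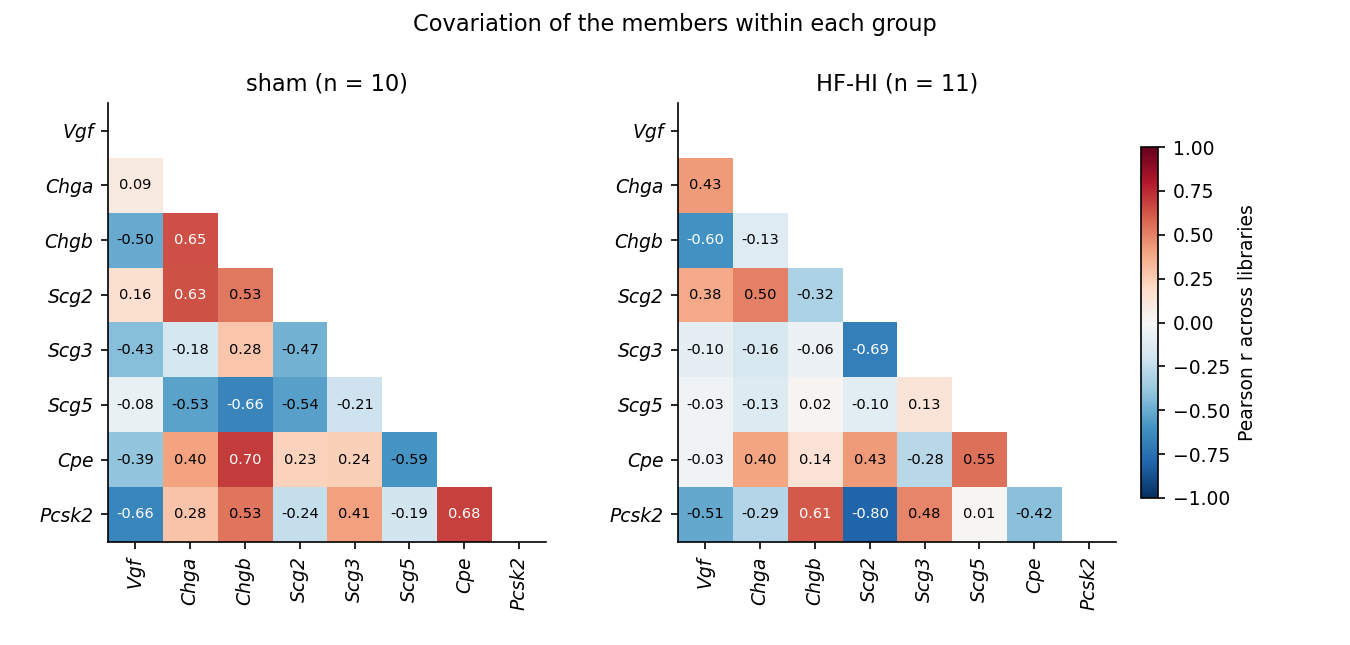
Pearson's r between each pair of members across the 10 sham libraries (left) and the 11 HF-HI libraries (right), red for positive and blue for negative. Positive and negative values are mixed in both groups, from -0.66 to 0.70 in sham and from -0.80 to 0.61 in HF-HI, and 0 of the 56 pass after adjustment.

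The genes of the table most like each member across mice were sought by Pearson's r over the 21 libraries after each gene was centred on its group mean, as a description. Cpe was most like Nono (r = 0.95), an RNA-binding protein of paraspeckles, and Sdha (r = 0.92), a subunit of succinate dehydrogenase. For Nono r was 0.97 within sham and 0.31 within HF-HI. Chgb was most like Tsnax (r = 0.92) and Sec62 (r = 0.92), the latter part of the endoplasmic reticulum translocon. Vgf was most like Tmem132a and Atp13a2 (both r = 0.88), whose GC contents of 61.3% and 59.5% are also high. Pcsk2 was most like Rims1 (r = 0.89), an active-zone scaffold, and Scube1 (r = 0.86). Both were higher in HF-HI, by 0.22 and 0.39 on the log2 scale (adjusted p = 0.000463 and 5.9e-06, limma), where Pcsk2 was not called. Scg5 was most like Ppia (r = 0.82), a prolyl isomerase, and Ddhd2 (r = 0.81), with log2 differences of -0.28 and -0.20 (adjusted p = 6.3e-06 and 3.52e-06, limma). Scg3 was most like Cacna1a (r = 0.78) and Vwa8 (r = 0.77), Scg2 like Magee1 (r = 0.80) and Vat1l (r = 0.75), and Chga like Lrch3 (r = 0.71) and Fads2 (r = 0.69). The measure holds anything the libraries share, such as base composition and depth.

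Other genes of peptide processing went both ways. Of 24 listed genes of peptide processing and granin partners, 10 were in the table, and HF-HI was higher for 3 and lower for 7 of them, beside 32.6% and 33.6% of all genes. The median log2 difference was -0.17, against -0.0086 over all genes. The largest differences were those of Ece1 (0.58, standard error 0.054, adjusted p = 7.98e-09), an endothelin-converting endopeptidase, and Ctsb (0.50, standard error 0.064, adjusted p = 5.91e-07), the lysosomal protease cathepsin B, all from limma. Dpp10 (-0.30, adjusted p = 1.37e-06, limma) and Dpp6 (0.29, adjusted p = 0.000141, limma) are peptidase relatives without enzymatic activity that accompany potassium channels, so they are in the list by family and not by function. Ece1, Ctsb and Dpp10 did not overlap between groups, as was so for 13.5% of all genes. Of other enzymes that act on neuropeptide precursors, 3 were singled out after their values were seen. Their log2 differences were -0.17 for the convertase Pcsk1 (adjusted p = 0.0071), -0.19 for the amidating enzyme Pam (adjusted p = 3.91e-05) and -0.11 for the carboxypeptidase Cpd (adjusted p = 0.0175), all from limma. With the GC trend removed they were -0.048 (adjusted p = 0.372), -0.12 (adjusted p = 0.00624) and -0.067 (adjusted p = 0.109), so that of these 3 only Pam was still called. Over the whole list that step left 3 genes higher and 5 lower, beside 29.2% and 31% of all genes, and Dpp10 at -0.17.

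Genes of vesicle formation and release went both ways. Of 50 listed, 36 were in the table, and 18 were higher, 10 lower and 8 not called, with a median log2 difference of 0.11, where 32.6% of all genes were higher and 33.6% lower. With library medians centred the list held 14 higher and 13 lower genes, where 26.1% of all genes were higher and 42.9% lower. Several large differences were increases in release machinery that dense-core and synaptic vesicles share. Stx1a, a plasma-membrane SNARE, differed by 0.90 on the log2 scale (standard error 0.097, adjusted p = 5.67e-08, limma). Rph3a, a Rab effector, differed by 0.63 (adjusted p = 1.4e-08, limma) and Syt7, a high-affinity calcium sensor of slow release, by 0.59 (adjusted p = 6.13e-09, limma). These 3 genes are among the largest differences of the list, and their groups did not overlap, as was so for 13.5% of all genes. Genes closer to dense-core vesicles themselves, singled out after their values were seen, were divided. The vesicle membrane proteins Ptprn and Ptprn2 were higher by 0.49 and 0.30, the priming factor Cadps was not called (-0.063, adjusted p = 0.14, limma), and the log2 differences of its paralog Cadps2 and the vesicle GTPase Rab27b were -0.19 and -0.25. With the GC trend removed Ptprn stood at 0.25, Rab27b at -0.12 and Cadps2 at -0.12, the last no longer called (adjusted p = 0.0558, limma). That step left 15 genes of the list higher and 7 lower, beside 29.2% and 31% of all genes.

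Peptide and trophic cargo was called about as often as genes at large. Of 41 listed genes 16 were in the table, and 8 were higher, 2 lower and 6 not called, where 66.3% of all genes were called, 32.6% higher and 33.6% lower. The median log2 difference was 0.16. With the GC trend removed 6 were higher and 3 lower, where 29.2% of all genes were higher and 31% lower. Spock2, a secreted proteoglycan, differed by 0.84 (standard error 0.099, adjusted p = 1.84e-07, limma) and Nrn1, the activity-regulated membrane-anchored protein neuritin, by 0.70 (standard error 0.12, adjusted p = 1.83e-05, limma). Igfbp5, which binds insulin-like growth factors, differed by 0.63 (adjusted p = 4.52e-07, limma). Sst, the somatostatin precursor of a class of interneurons, differed by 0.63 (standard error 0.088, adjusted p = 2.18e-06, limma), with sham values from 8.505 to 9.18 and HF-HI values from 9.15 to 9.75 that met at the edge. Of the other classical neuropeptide precursors in the table, singled out after their values were seen, Npy was higher by 0.48 without overlap, as were 8.71% of all genes. Cck (-0.016, adjusted p = 0.877, limma) and Penk (0.10, adjusted p = 0.522, limma) were not called.

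**Figure D5:**
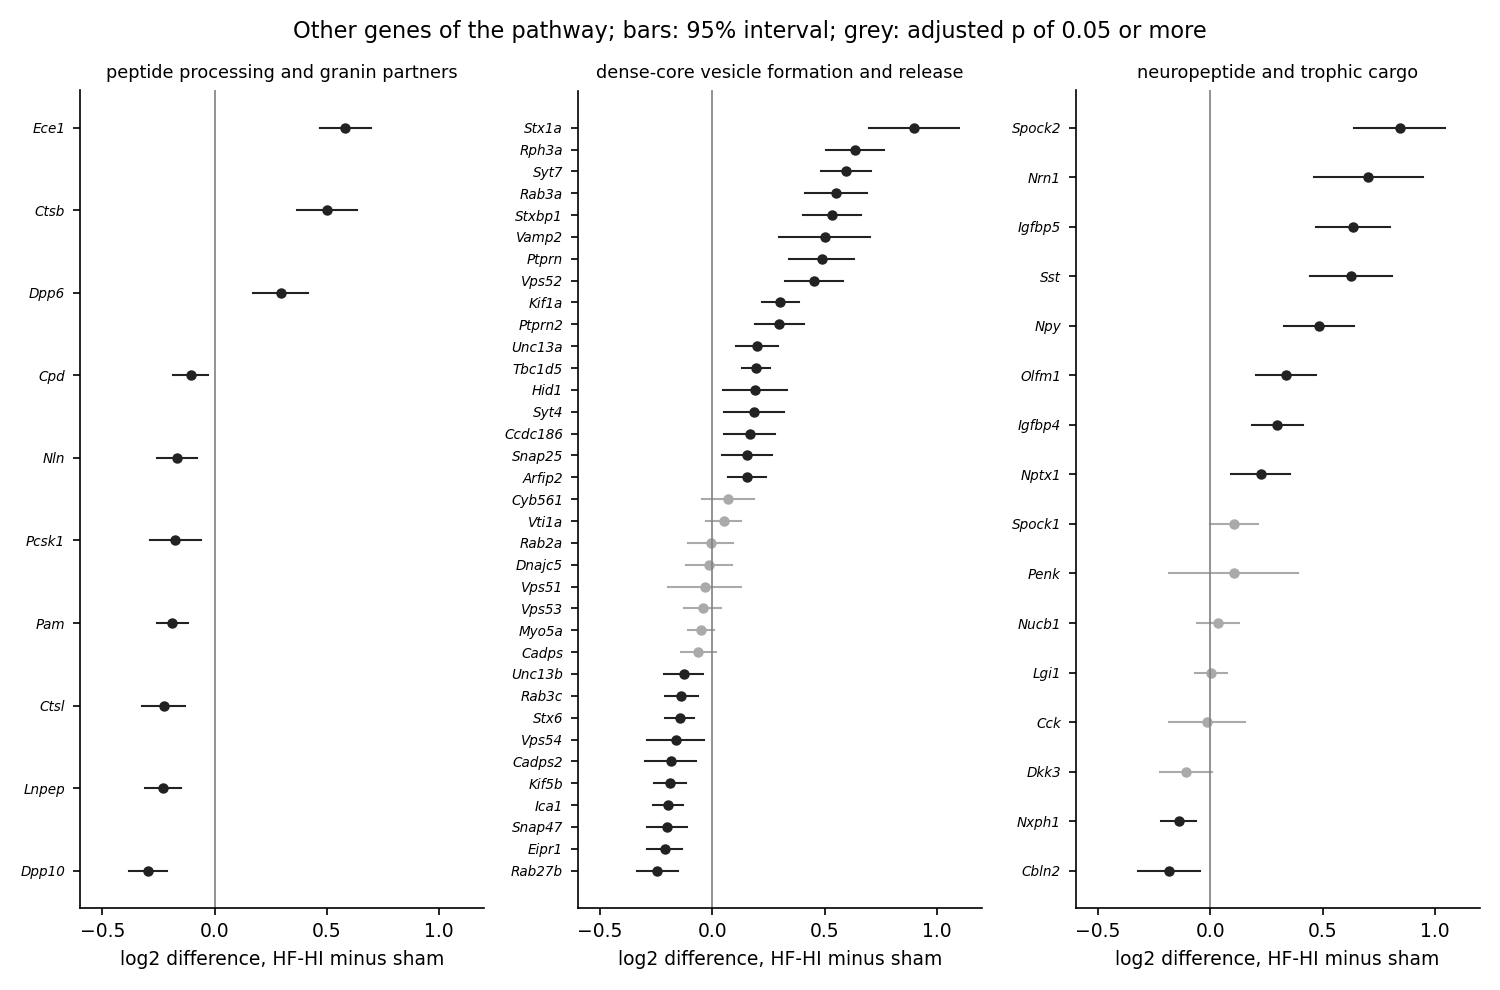
Log2 difference between HF-HI and sham (horizontal axis) with 95% interval for genes of 3 lists in the table, black where the adjusted p was under 0.05 and grey otherwise. The points drawn include 3 higher and 7 lower genes of the processing list, 17 and 10 of the formation and release list, and 8 and 2 of the cargo list, with Stx1a at the top of the second list.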

How the data were processed

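Cortical total RNA of each mouse was made into a stranded, ribosomal RNA-depleted library. The authors aligned reads to mm10 with STAR, counted them per transcript with eXpress, normalized with DESeq2 and deposited variance-stabilized values on a log2 scale for 5544 genes. The versions of STAR and eXpress and the annotation are not given in the sources used here. Every column matched a library by group and number. Without counts to hand, count models were not used, and sequencing depth is known only in relative terms. The spacing of back-transformed values between 500 and 600 gave the depth of each library as a multiple of the median, from 0.580 to 1.26 in sham and from 0.548 to 1.64 in HF-HI. Errors are therefore those of the spread between mice, with no interval for counting error.

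Symbols (5539 genes), positions and exonic GC content came from GENCODE vM21 (GRCm38, the assembly of mm10), and promoters from RefSeq. HF-HI and sham were set against each other by limma (version 3.58.1, R 4.3.3), using lmFit and a trended eBayes, two-sided. The rest ran in Python 3.11.15 with pandas 2.3.3, scipy 1.17.1, numpy 2.4.6 and, for plots, matplotlib 3.10.9. Permutation tests used 100000 resamples. GC trends were removed per library by lowess (span 0.3). Fits and permutation tests were checked on simulated data. The design assumed log2 values, as found. The members and lists were chosen with earlier results of these data known. Named genes are the 8 members, the 4 largest called differences of each list and the 2 genes most like each member, and 1 gene under this rule is counted but not reported here. Same-numbered sham and HF-HI libraries were not paired by any label. The depth covariate, the relations with depth and each omission of sham replicates 1 to 3 were chosen after seeing the data. No library was an apparent duplicate of another, the smallest root mean square difference between libraries being 0.10 on the log2 scale. Protein sequences were not used here.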

Additional observations from a re-analysis of the deposited data

How the results depend on the processing

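The differences of Vgf, Chga, Chgb, Scg5 and Cpe kept their direction and their side of the threshold in each of the 12 alternatives and with each of the 21 libraries left out. Of these alternatives, an adjusted p under 0.1 used the same fit and could not remove a called gene. The Wilcoxon test and the fits without the eBayes trend or the lowest quartile kept the same differences and could change only the p. Over the alternatives they ran from 0.35 to 0.79 for Vgf, 0.20 to 0.43 for Chga, 0.22 to 0.38 for Chgb, -0.38 to -0.30 for Scg5 and 0.80 to 1.02 for Cpe. A minimum absolute difference of 0.25 removed Scg2 (-0.18) and Scg3 (0.13), leaving 5 members called, 1 of them lower, and 1433 genes called in the table. It also left 1 lower gene in the processing list, 11 higher and 0 lower in the release list, and 0 lower in the cargo list. Centring library medians removed Scg3 (0.077). Pcsk2 was called in none of the alternatives and turned to -0.044 with medians centred, -0.045 with quantile normalization and -0.023 without sham replicates 1 to 3, an alternative chosen after seeing the data. With single libraries left out it ran from -0.0078 to 0.029. Leaving out the lowest quartile of genes removed both lower genes of the cargo list (0 lower), since they were not tested. The replicate number as a block gave 9 higher and 1 lower in that list, called 3498 genes in place of 3674 and changed no call among the members. The numbers did not pair the libraries: same-numbered deviations correlated from -0.31 to 0.36, over 0.1 for 4 of 10 pairs, and 0 of 10 sham libraries correlated best with their own number. With libraries left out in turn, 3562 to 3805 genes were called, the members stayed at 7, and pairs of members that differed numbered 23 to 25, against 19 with the GC trend removed and 24 before. No relation between members passed under any of its alternatives (0 of 56 in each). In the sham group, Dixon's ratio was examined for 20 genes and reached 0.37, under its critical value. The ratio takes the single lowest or highest library, so it cannot flag several that lie low together, as sham replicates 1 to 3 did for Cpe. HF-HI was not examined in this way. The cause of the shifts between alternatives was not tested. Unknown total depth leaves the counting error of single values open, most of all for Vgf and Chga, the lowest members.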

Other observations

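The members were also set against 3 measures of each library, the GC slope, the mean of the neuron markers and the relative depth, within each group. Of these 48 relations, 4 had a permutation p under 0.05 and 0 passed after Benjamini-Hochberg adjustment over the 48. For Cpe and relative depth in HF-HI, Pearson's r was 0.71 (permutation p = 0.0168, adjusted p = 0.436) and Spearman's rho 0.76 (permutation p = 0.0088, adjusted p = 0.422), n = 11, and r was 0.85 without the 2 libraries farthest from the median depth. In sham, r was -0.49 (permutation p = 0.151, adjusted p = 0.711) and rho -0.20 (permutation p = 0.581, adjusted p = 0.893), n = 10. For Vgf and the GC slope, r was 0.60 in sham (permutation p = 0.070, adjusted p = 0.672) and 0.62 in HF-HI (permutation p = 0.039, adjusted p = 0.468). Spearman's rho was 0.43 (permutation p = 0.218, adjusted p = 0.793) and 0.55 (permutation p = 0.0869, adjusted p = 0.713). Without the 2 libraries farthest from the median slope, r was 0.55 and 0.27.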
